A study of Mus musculus with 12 samples.

Results

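The comparison described here sets 3 arrays of cells expressing DICER1 D1709N against 3 arrays of cells expressing GFP, 6 of the 12 arrays in the series, chosen by their titles and paired by the replicate number in them. All cells were of the mouse line DKO172, which the labels trace to a fallopian tumor and to a female. The groups received a pLD-hygro-EnVM plasmid coding for DICER1 D1709N, DICER1 G1809R, wild-type DICER1 (WT) or GFP, and each group has 3 arrays. Cells of every group, GFP included, took up 2 µg of plasmid and were moved to new plates at 24 h. Selection with hygromycin (300 µg/ml) lasted 84 h, and expression was read at 108 h. RNA therefore came from plasmid-selected cells of a single line, and no source used here says whether the replicate numbers stand for separate cultures, so p-values measure the spread between these arrays, which may be technical. Messenger RNA was measured on single-colour Agilent arrays. miRNAs were not measured in the data used here.

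Hairpin precursors of miRNAs are cut into duplexes by DICER1, an RNase III enzyme. Its RNase IIIb domain cuts the strand that yields the 5p miRNA and its RNase IIIa domain the strand that yields the 3p miRNA. D1709N and G1809R are hotspot substitutions of the RNase IIIb domain, found in tumors of the DICER1 syndrome, and an enzyme that carries one releases mainly 3p miRNAs. A miRNA lowers the messages that pair with its seed, which is bases 2 to 8, so 5p families such as let-7 and 3p families such as miR-29 have different targets.

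The hairpins of let-7a (Mirlet7a-1) and miR-29a (Mir29a) show where the main product lies: on the 5p arm in let-7a, at bases 13 to 34 of 94, and on the 3p arm in miR-29a, at bases 54 to 75 of 88. Capitals mark the mature miRNA. Sequences are RefSeq's, build GRCm38.p6.
Mirlet7a-1: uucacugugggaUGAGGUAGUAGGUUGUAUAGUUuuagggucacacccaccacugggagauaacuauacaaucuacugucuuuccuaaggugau
Mir29a: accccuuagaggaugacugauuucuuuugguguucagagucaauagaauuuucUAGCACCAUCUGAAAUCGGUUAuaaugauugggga

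Mature sequences of the families whose targets are described below are given with the seed in capitals, 5p families first.
mmu-let-7a-5p: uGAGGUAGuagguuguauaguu
mmu-miR-17-5p: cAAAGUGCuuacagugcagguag
mmu-miR-21a-5p: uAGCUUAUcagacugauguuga
mmu-miR-125b-5p: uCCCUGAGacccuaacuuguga
mmu-miR-29a-3p: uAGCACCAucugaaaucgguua
mmu-miR-101a-3p: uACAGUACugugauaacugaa
mmu-miR-27a-3p: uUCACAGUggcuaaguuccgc
mmu-miR-23a-3p: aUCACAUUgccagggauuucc
mmu-miR-22-3p: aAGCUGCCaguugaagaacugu
mmu-miR-221-3p: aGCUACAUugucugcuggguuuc
In the RefSeq table the let-7a seed occurs in 11 mature mouse miRNAs and the miR-29a seed in 3 (miR-29a, miR-29b and miR-29c). The miR-221 seed is shared with miR-222 and miR-1928, and the seeds of miR-101a, miR-23a and miR-22 occur in no other entry of that table.

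A total of 24184 genes and transcripts passed the filter on dim probes, 14732 of them with a RefSeq symbol. Levels are log2 of the processed signal relative to the array's 75th percentile, so 0 is the level of a bright spot and changes are differences of these levels. Of all probes, 68.1%, 57.7% and 49.5% were well above background on D1709N arrays 1 to 3, against 71.4%, 62.7% and 55.1% on GFP arrays 1 to 3, so each D1709N array had the lower share of its pair. WT replicate 1 stood apart, with 82.7%, and results that involve WT arrays carry this limit. Arrays with replicate number 1 shared a slide, and numbers 2 and 3 shared the other. Of 55 markers of 6 cell types 37 passed the filter, and they came from several lineages: Krt8 and Krt18 (keratins), Vim and Fn1 (mesenchymal genes) and Wt1, Ovgp1 and Foxl2 were well above background on all 6 arrays, while the oviduct markers Pax8, Foxj1 and Muc16 did not pass, and Cdh1 was above background on 1 D1709N array and 3 GFP arrays. Among the leukocyte markers, Ptprc, Cd68, Adgre1 and Lyz2 did not pass the filter, but Cd3e, Itgam, Csf1r and Cd14 did, none of them called.

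Between D1709N and GFP cells 1027 genes and transcripts, 4.25% of those tested, passed the test (limma with the replicate number as a block, Benjamini-Hochberg adjusted p under 0.05, called below). Of these, 426 (1.76%) were higher and 601 (2.49%) lower in D1709N cells. Among the 14732 with a RefSeq symbol, on which the gene lists below draw, 2.05% were called higher and 3.43% lower. All lists were drawn up with earlier results of these data known. The changes were small: the median fold among called genes was 1.55, and 98 genes were higher and 75 lower by at least 2-fold. All 1027 had the same sign in the 3 pairs, but they were selected in a fit on these same pairs, which favours such agreement. For 681 of them the 3 D1709N arrays did not overlap the 3 GFP arrays, which held for 13.6% of all genes tested. The count rests on the pairing, since only 12 of the 1027 (2 higher, 10 lower), 0.0496% of genes tested, passed without the block, and on each array: leaving out any one D1709N or GFP array left 127 to 359 calls. D1709N replicate 2 gave the lowest of these counts (127) and GFP replicate 1 the highest (359), while leaving out G1809R replicate 1 or 2, which only contribute to the estimate of spread, left 638 or 597.

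**Figure D1:**
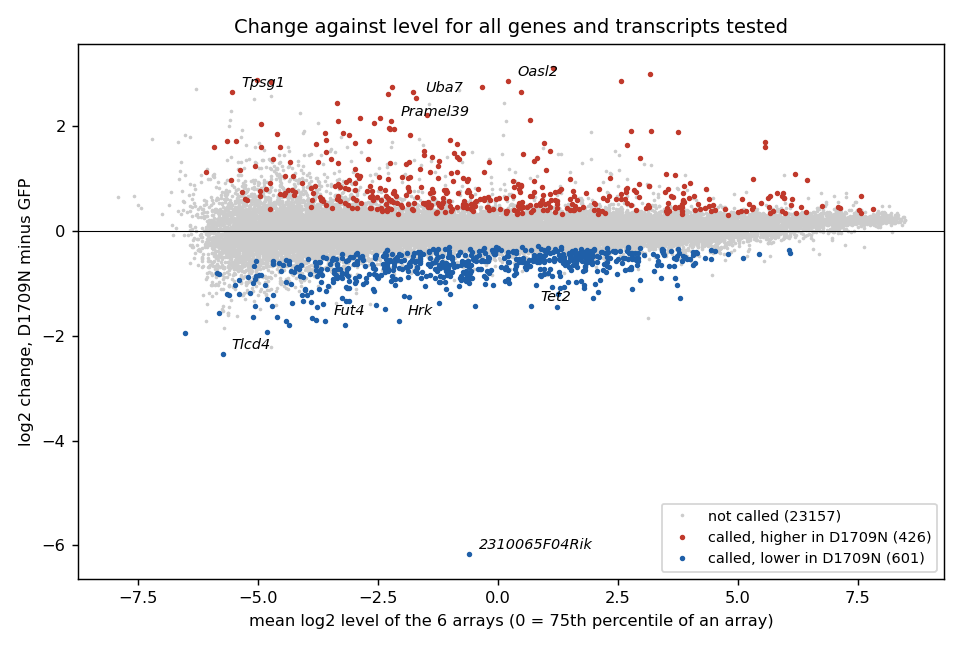
Change in log2 level, D1709N minus GFP (vertical axis), against the mean log2 level of the 6 arrays (horizontal axis, 0 is an array's 75th percentile), for 24184 genes and transcripts. Red points are the 426 called higher in D1709N, blue points the 601 called lower, and grey points were not called; 2310065F04Rik lies apart at a change of -6.17.

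The 10 genes called lower in D1709N cells both with and without the block were Tet2, Celf1, Phlpp2, Six4, Purg, Dnajc13, Tmem101, Homer1, Fut4 and 2310065F04Rik. The 2 called higher in both fits are transcripts with no RefSeq symbol. Tet2, a dioxygenase that oxidizes 5-methylcytosine and a known target of miR-29 and miR-22, had levels of 0.00, -0.07 and 0.00 on the D1709N arrays, against 1.64, 1.42 and 1.17 on the GFP arrays. The groups did not overlap, and Tet2 was 2.71-fold lower in D1709N cells (log2 change -1.44 ± 0.11, SE; limma adjusted p = 0.00157, and 0.0241 without the block). The related dioxygenases were not called: the log2 change was 0.29 for Tet1 (limma adjusted p = 0.33) and 0.18 for Tet3 (limma adjusted p = 0.279). Of 18 measured genes of DNA methylation and demethylation, 1 was called, Tet2. That is 5.56%, near the 5.48% called among all genes with a RefSeq symbol. Also not called were the methyltransferases Dnmt3a (log2 change -0.28, limma adjusted p = 0.114) and Dnmt3b (-0.13, limma adjusted p = 0.582).

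Messages of 3 RNA-binding proteins also fell. Celf1, which binds GU-rich messages and regulates their splicing and decay, had levels of 2.96, 2.90 and 2.96 in D1709N cells, against 3.92, 3.89 and 3.74 in GFP cells. It was 1.88-fold lower in D1709N cells (log2 change -0.91 ± 0.08, SE; limma adjusted p = 0.00274, and 0.0236 without the block). Purg, a member of the purine-rich element binding proteins, was 1.99-fold lower (limma adjusted p = 0.00325) and Ptbp1, a splicing regulator, 1.28-fold lower (limma adjusted p = 0.0321). These 3 were the called members among 30 measured CELF, PUR and other RNA-binding proteins, all lower. That is 10.0%, against 2.49% of all genes and 3.43% of those with a RefSeq symbol. The list is named for the families of Celf1 and Purg. It was drawn up with earlier results of these data known, so its share is a description only.

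Of 27 measured genes of PI3K and AKT signalling and phosphatases, 5 fell and none rose. That is 18.5%, against 2.49% of all genes and 3.43% of those with a RefSeq symbol. This list too was drawn up with earlier results of these data known, so its share is a description only. Phlpp2, a phosphatase that removes an activating phosphate from AKT, had levels of 1.40, 1.49 and 1.59 in D1709N cells, against 2.61, 2.62 and 2.77 in GFP cells. The groups did not overlap and the level was 2.26-fold lower in D1709N cells (log2 change -1.18 ± 0.08, SE; limma adjusted p = 0.00116, and 0.0241 without the block). Others that fell were Pik3cb (1.45-fold lower), a catalytic subunit of PI3K, and Rictor (1.39-fold lower), a subunit of the kinase complex mTORC2, so the list holds both genes that carry the signal and a phosphatase that opposes it.

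Other marked falls concerned enzymes, adhesion molecules and signals of single genes. Fut4, a fucosyltransferase that makes the Lewis X epitope, had levels of -4.37, -4.55 and -4.48 in D1709N cells, against -2.69, -2.85 and -2.71 in GFP cells, which is 3.28-fold lower in D1709N cells (log2 change -1.71 ± 0.10, SE; limma adjusted p = 0.000567, and 0.00289 without the block). Fut4 was well above background on 2 of the 3 D1709N arrays, and its log2 change was -0.86 under normexp background correction and -1.03 as the mean of all its probes. Fut1, a fucosyltransferase that makes the H antigen, was 1.75-fold higher in D1709N cells (limma adjusted p = 0.0329). Six4, a homeobox factor, was 2.30-fold lower (limma adjusted p = 0.00384). It was the 1 called gene among 17 measured homeobox and related developmental factors (5.88%, near the 5.48% of genes with a RefSeq symbol). Hrk, a pro-apoptotic BH3-only gene, had levels of -2.60, -2.77 and -3.37 in D1709N cells, against -0.99, -0.47 and -2.15 in GFP cells. It was 3.28-fold lower in D1709N cells (limma adjusted p = 0.00572), and the BH3-only gene Bmf was 1.94-fold lower (limma adjusted p = 0.0118).

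Some of the largest falls were of genes near the limit of detection. Cyp1b1, a cytochrome P450 and a known target of miR-27b, was not well above background on any D1709N array and was above it on all 3 GFP arrays. With the lowest signals well above background as the floor, it was at least 3.45-fold lower in D1709N cells. That floor is the lowest over all probes of an array and may lie below the limit for a given probe, so such bounds are not strict. Tlcd4 was likewise below background on the D1709N arrays, and at least 2.07-fold lower with the same floor. Gjb2, the gap junction protein connexin 26, was 3.46-fold lower and above background on 2 of the 3 D1709N arrays, and Htr2c, a serotonin receptor, was 3.48-fold lower and above background on 1. Measured on all 6 arrays were the falls of Mgat4c (3.24-fold), the tumor necrosis factor family ligand Ltb (2.82-fold), the vascular addressin Madcam1 (2.74-fold) and the matrix protein Tnc (2.73-fold). Adjusted p-values of these 8 genes lay between 0.00572 and 0.0474 (limma), but Cyp1b1 and Tlcd4 passed the filter on dim probes through the GFP arrays alone, so the selection itself requires a difference. Normexp background correction gave smaller fitted log2 changes: -0.66 for Cyp1b1, against -1.93, and -0.57 for Tlcd4, against -2.35. Likewise it gave -0.66 for Htr2c, against -1.80, -1.09 for Gjb2, against -1.79, -0.80 for Mgat4c, against -1.70, and -0.65 for Tnc, against -1.45.

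The uncharacterized transcript 2310065F04Rik changed far more than any other gene tested. Its levels were -4.09, -3.87 and -3.07 in D1709N cells, against 1.83, 3.11 and 2.54 in GFP cells, a 72.1-fold difference (log2 change -6.17 ± 0.31, SE; limma adjusted p = 0.000515, and 0.000242 without the block). The same GFP arrays set against the other DICER1 groups gave log2 changes of -6.32 for G1809R and -5.95 for WT, so the transcript was high on the GFP arrays and low in every DICER1 group. Under normexp background correction its log2 change was -5.28 (D1709N minus GFP). Whether its probe can read sequence of the GFP plasmid was not analysed here. On the other 6 DICER1 arrays its level lay between -4.08 (G1809R replicate 2) and -3.27 (WT replicate 1).

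**Figure D2:**
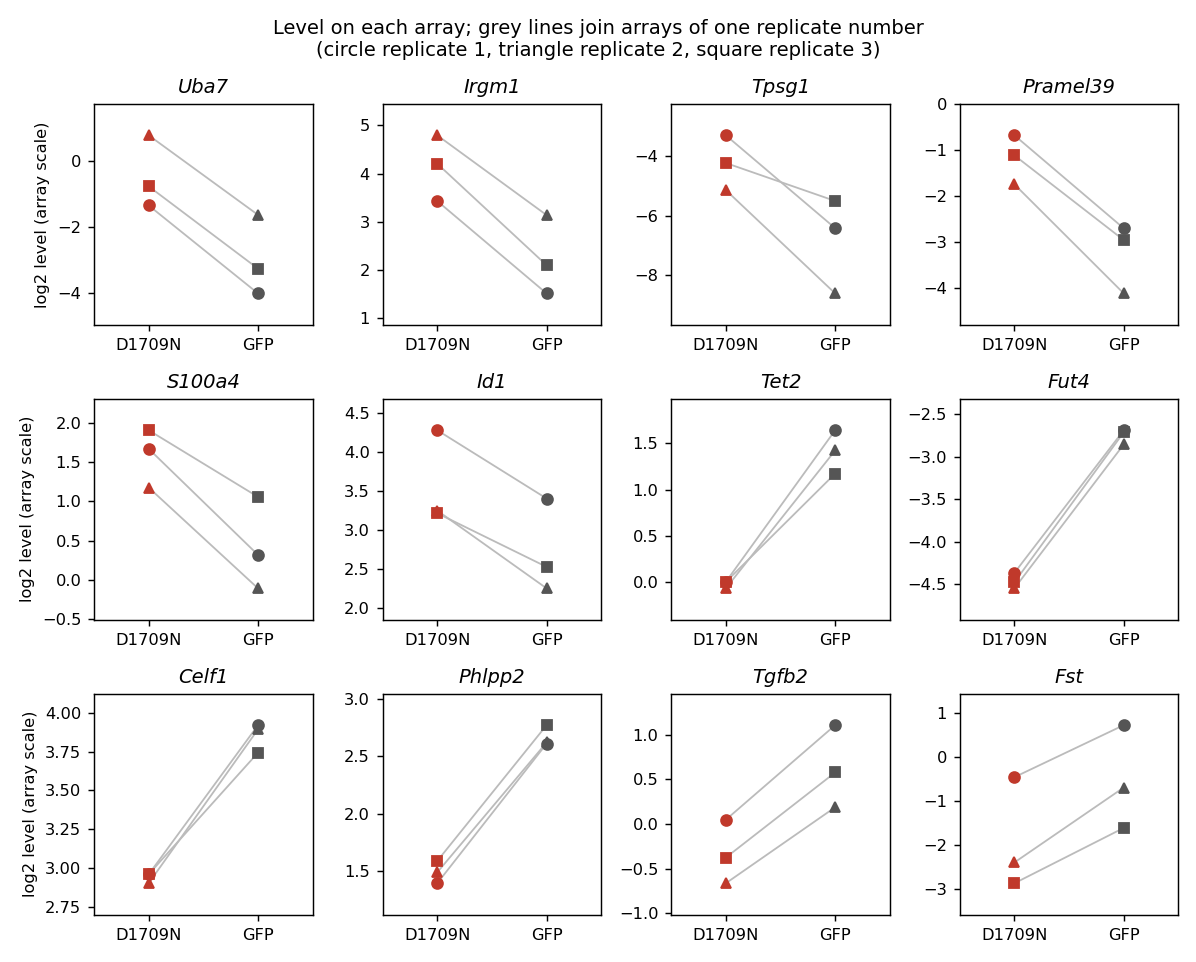
Log2 level (vertical axis, relative to the array's 75th percentile) of 12 genes on each array, D1709N left in red and GFP right in grey; symbols give the replicate number and grey lines join arrays of one number. Tet2, Fut4, Celf1 and Phlpp2 separate the groups with little spread, whereas in Fst and Id1 the groups overlap and only the paired lines all slope the same way.

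The known targets of 3p and 5p miRNAs were described by 14 lists for 3p families and 9 for 5p families. These lists were drawn from textbook knowledge, but with earlier results of these data known, so their counts and medians are descriptions. Of 230 measured genes in the 3p lists, 28 fell and 4 rose, so 12.2% were called lower against 2.49% of all genes tested and 3.43% of those with a RefSeq symbol. Of 160 measured genes in the 5p lists, 15 fell and none rose, 9.38% lower. The lists share 46 genes. Without these, 20 of 184 genes (10.9%) of the 3p lists and 7 of 114 (6.14%) of the 5p lists were called lower. The median log2 change was -0.10 in the 3p lists and -0.07 in the 5p lists, against 0.03 over all genes, and medians of the 3 pairs ran from -0.19 to -0.03 in the 3p lists and from -0.13 to -0.02 in the 5p lists. Without the block 1 gene of the 3p lists and none of the 5p lists was called lower, and in the fit of the 6 D1709N and GFP arrays with the block the counts were also 1 and 0. Most members changed by little, and the difference between the arms was not tested. The lists hold well-studied, often abundant messages, and the calls are few without one array: leaving out any one D1709N or GFP array left 6 to 16 called falls in the 3p lists, with the lowest count without D1709N replicate 2, and 0 to 5 in the 5p lists, with none without D1709N replicate 3. Leaving out G1809R replicate 1, 2 or 3 left 9, 7 and 9 in the 5p lists.

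**Figure D3:**
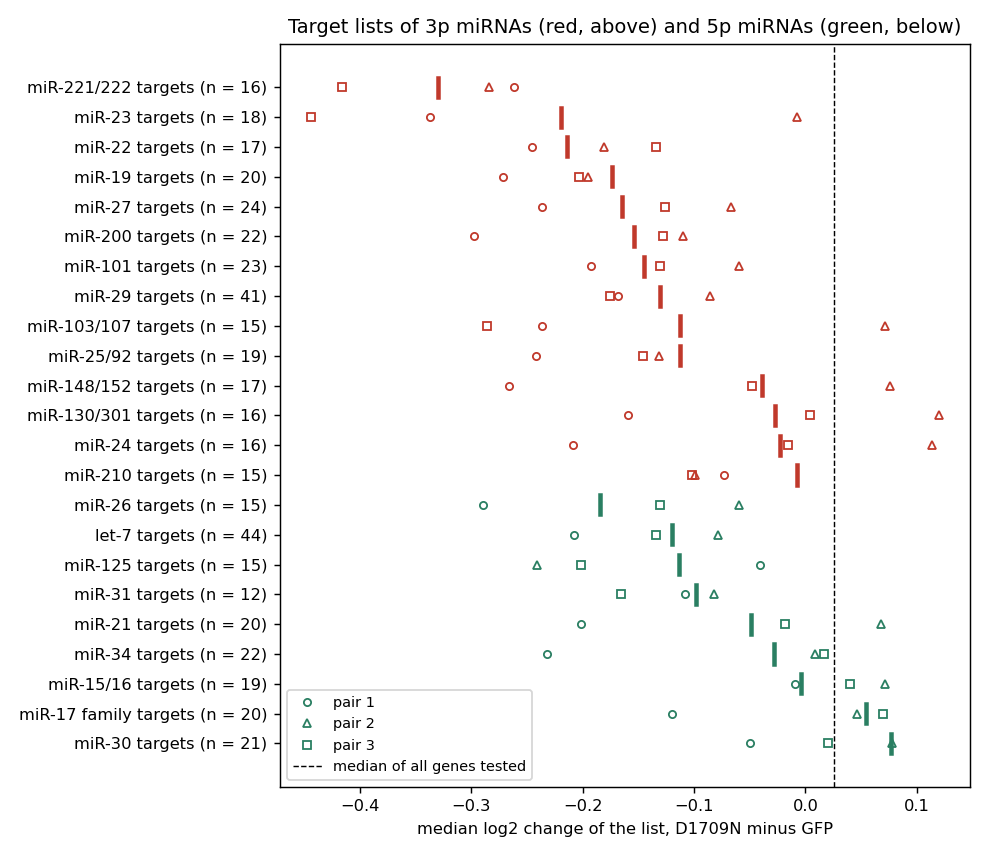
Median log2 change, D1709N minus GFP (horizontal axis), of each list of known miRNA targets, with the number of measured genes in brackets; bars are the median over the fitted changes, open symbols the medians in the 3 pairs of arrays, red for 3p and green for 5p families. The lists of miR-221 with miR-222 and miR-23 lie lowest at -0.33 and -0.22, and the dashed line is the median of all genes tested at 0.03.

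Among 3p families, the lists with the lowest medians were those of miR-221 and miR-222 (-0.33, 16 genes), miR-23 (-0.22, 18 genes) and miR-22 (-0.21, 17 genes). The medians of miR-23 in pairs 1 to 3 were far apart, at -0.337, -0.008 and -0.444. Those of miR-221 and miR-222 were -0.262, -0.284 and -0.416, and those of miR-22 were -0.246, -0.181 and -0.134. Of the targets of miR-221 and miR-222, 4 fell, among them Trps1, a GATA-type repressor, 2.11-fold (limma adjusted p = 0.0109), Bmf 1.94-fold and Ets1, an ETS transcription factor, 1.71-fold (limma adjusted p = 0.0102). Trps1 had levels of 0.75, 0.74 and 1.00 in D1709N cells, against 2.32, 1.81 and 1.60 in GFP cells, without overlap. Of the miR-23 targets, Cxcl12, a chemokine of stromal cells, fell 2.70-fold (limma adjusted p = 0.00861), although its groups overlapped, with levels of -0.12, -2.12 and -1.34 in D1709N cells against 1.22, -0.72 and 0.22 in GFP cells. Other called targets of miR-23 included Lmnb1, which codes for lamin B1 and is also listed for miR-101 (1.92-fold lower), and Tnfaip3. Targets of miR-22 that fell included Tet2 and Max, the dimer partner of MYC (1.45-fold lower, limma adjusted p = 0.0115).

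The miR-29 list, the longest 3p list, had 4 called members of 41, all lower (9.76%, against 3.43% of genes with a RefSeq symbol). They were Tet2, Eomes, a T-box factor (1.75-fold lower, limma adjusted p = 0.00898), Lamc1 of laminin (1.31-fold lower, limma adjusted p = 0.0348) and Col1a2 of type I collagen (1.54-fold lower, limma adjusted p = 0.0478). Other collagens known as miR-29 targets were not called, with log2 changes of -0.12 for Col1a1 (limma adjusted p = 0.512) and -1.33 for Col3a1 (limma adjusted p = 0.0908, above background on 1 D1709N array). Of 24 miR-27 targets 6 fell, among them Adora2b, an adenosine receptor (1.81-fold, limma adjusted p = 0.0151), Pdgfra, a receptor of platelet-derived growth factor (1.49-fold, limma adjusted p = 0.0115), and Fbxw7, a ubiquitin ligase subunit (1.38-fold, limma adjusted p = 0.0217). Atxn1 was the called miR-101 and miR-19 target with the smallest p, 1.72-fold lower (limma adjusted p = 0.00803). Zeb2, a repressor of epithelial genes and a miR-200 target, fell 1.52-fold (limma adjusted p = 0.0105), while its relative Zeb1 had a log2 change of -0.37 (limma adjusted p = 0.0635). The 4 rises in the 3p lists included E2f2 and Trib3 (miR-24) and the neurotrophin receptor Ntrk2 (miR-200), 1.59-, 1.81- and 1.61-fold higher in D1709N cells.

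Of the 5p families, let-7 has the longest list, and 3 of its 44 measured targets fell (6.82%, against 3.43% of genes with a RefSeq symbol). Lin28b, the RNA-binding protein that blocks let-7 maturation, fell 1.70-fold (limma adjusted p = 0.0408). Mycn fell 1.53-fold (limma adjusted p = 0.0239) and the activin receptor Acvr1b 1.60-fold (limma adjusted p = 0.0355). Mycn is also listed for miR-101 and Acvr1b for miR-24 and miR-210. Lin28b had levels of 2.45, 3.30 and 2.89 in D1709N cells, against 3.53, 3.94 and 3.46 in GFP cells, close together but without overlap. Other leading let-7 targets were not called in D1709N cells: the log2 change was -0.08 for Lin28a (limma adjusted p = 0.621), 0.09 for Hmga2 (limma adjusted p = 0.771) and -0.37 for Nr6a1 (limma adjusted p = 0.172). No target of miR-15/16 (19 measured) or miR-31 (12 measured) was called. Of 15 miR-125 targets 5 fell (33.3%, against the same 3.43%). Bmf, Ets1 and Tnfaip3 are also listed for 3p families, while Trp53inp1 and Lifr, the second named after its values were seen, are not.

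Dicer1 itself had levels of 0.93, 0.91 and 0.61 in D1709N cells, against 1.36, 1.02 and 1.02 in GFP cells (log2 change -0.32 ± 0.10, SE; limma adjusted p = 0.116). The labels do not spell out the genotype of DKO172, and where the probe lies relative to the plasmid's coding sequence or to any altered part of the line's own gene was not analysed here, so this value is no check of the expressed enzyme. Of 30 measured genes of miRNA processing and silencing, 1 was called, Lin28b, which fell. That is 3.33%, near the 3.43% called lower among genes with a RefSeq symbol.

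Interferon-stimulated genes made up the list with the most rises. Of 60 measured, 20 were called higher in D1709N cells and none lower. That is 33.3%, against 1.76% of all genes and 2.05% of those with a RefSeq symbol. The median log2 change was 1.31 over the list, with medians of 1.28, 1.18 and 1.37 in the 3 pairs. Of the 60, 57 were higher in D1709N cells in each of the 3 pairs. Called genes ranged from a log2 change of 0.73 (Irf9, a subunit of the interferon-activated factor ISGF3) to 2.98 (Isg15, the ubiquitin-like modifier), both named after their values were seen. Uba7, the enzyme that activates ISG15 for conjugation, had levels of -1.34, 0.79 and -0.76 in D1709N cells, against -4.02, -1.63 and -3.27 in GFP cells. The groups did not overlap, and Uba7 was 5.80-fold higher in D1709N cells (log2 change 2.54 ± 0.33, SE; limma adjusted p = 0.00862, and 0.446 without the block).

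Further rises of at least 3-fold covered several arms of the response. Oasl2, of the oligoadenylate synthetase family, had levels of 0.92, 3.08 and 0.92 in D1709N cells, against -2.46, 0.78 and -1.97 in GFP cells, and was 7.23-fold higher in D1709N cells (limma adjusted p = 0.0324). Rtp4 was 7.19-fold higher (limma adjusted p = 0.0221), and the interferon-induced GTPases Tgtp2 and Irgm1 were 6.28-fold and 3.73-fold higher (limma adjusted p = 0.0387 and 0.0157), with a log2 change of 1.91 for Tgtp2 as the mean of all its probes, against 2.65. Irgm1 had levels of 3.43, 4.80 and 4.21 in D1709N cells, against 1.51, 3.14 and 2.09 in GFP cells. Parp14, of the poly-ADP-ribose polymerase family, was 4.61-fold higher (limma adjusted p = 0.0313). Outside the list, the related genes Oas1f, Parp12 and Ifi27l2a were 3.74-, 3.84- and 4.31-fold higher (limma adjusted p = 0.0324, 0.0239 and 0.00771). Several of these genes belong to families of near-identical copies (Oas, Irgm, Tgtp), whose probes may read more than one gene.

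The level of these genes also differed between replicate numbers. Relative to the mean of the GFP arrays, the median of the 60 genes lay at 0.92, 2.06 and 0.97 on D1709N arrays 1 to 3, against -0.51, 0.91 and -0.47 on GFP arrays 1 to 3. GFP array 2 thus lay close to D1709N arrays 1 and 3, and a comparison that ignores the pairs did not separate the groups: none of the 60 was called without the block, and the 20 called genes had adjusted p-values of 0.306 to 0.791 there (limma). In a fit of the 6 D1709N and GFP arrays alone, with the block, 19 were called. The count of 20 fell to between 0 and 11 when any one D1709N, GFP or G1809R array was left out (0 without D1709N replicate 2, 11 without G1809R replicate 3), and was 44 without WT replicate 1, 34 without WT replicate 3 and 46 without all WT arrays.

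**Figure D4:**
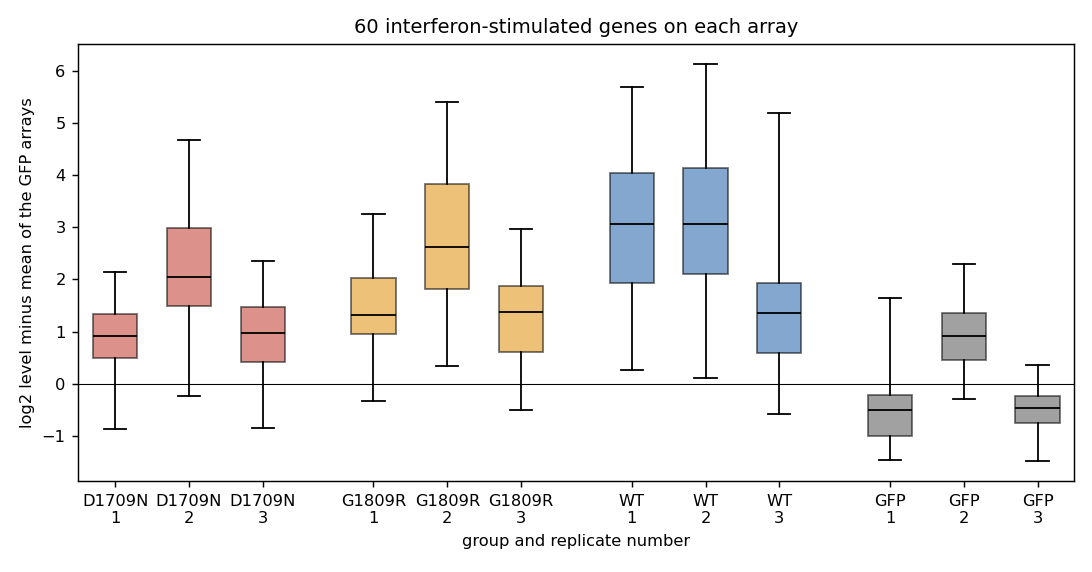
Log2 level minus the mean of the GFP arrays (vertical axis) for 60 interferon-stimulated genes on each of the 12 arrays, by group and replicate number; boxes give the quartiles, the line the median and whiskers the full range. In D1709N and GFP alike replicate 2 is highest, and within each number the D1709N array lies above the GFP array.

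Promoters were searched for the letters of a core interferon-stimulated response element, GAAANNGAAA or its reverse complement TTTCNNTTTC, in the window from 250 bases before to 50 bases after each gene's start in RefSeq (overlapping matches counted). The letters occur in 3.99% of 27025 genes with a listed promoter and in 3.63% of the 11708 of these that were tested. They occur in 47.9% of the 48 interferon-stimulated genes with a promoter in the table, in 9 of the 15 called ones and 14 of the 33 others, and in 4.35% of 46 genes of S phase and mitosis. Promoters of Tgtp2 (chr11:49064163-49064462, minus strand), Irgm1 (chr11:48871371-48871670, minus strand) and Irgm2 (chr11:58214727-58215026, plus strand), 3 called genes that hold the letters, are given 5′ to 3′ with the matches in capitals (GRCm38.p6). The first match starts at position -70 from the gene's start in Tgtp2, -30 in Irgm1, where 2 matches overlap, and -64 in Irgm2. No match lies in the windows of Oasl2, Uba7 and Slfn2.
Tgtp2: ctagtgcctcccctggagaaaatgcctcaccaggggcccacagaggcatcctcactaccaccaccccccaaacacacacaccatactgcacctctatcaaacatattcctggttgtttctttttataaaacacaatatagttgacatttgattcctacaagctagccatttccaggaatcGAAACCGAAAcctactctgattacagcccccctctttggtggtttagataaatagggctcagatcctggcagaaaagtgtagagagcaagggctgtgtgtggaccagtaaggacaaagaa
Irgm1: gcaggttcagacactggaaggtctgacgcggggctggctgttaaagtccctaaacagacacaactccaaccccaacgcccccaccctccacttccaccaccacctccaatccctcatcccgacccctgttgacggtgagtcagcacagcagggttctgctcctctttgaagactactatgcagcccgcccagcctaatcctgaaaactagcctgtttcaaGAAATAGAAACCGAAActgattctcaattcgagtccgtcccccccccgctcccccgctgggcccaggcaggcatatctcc
Irgm2: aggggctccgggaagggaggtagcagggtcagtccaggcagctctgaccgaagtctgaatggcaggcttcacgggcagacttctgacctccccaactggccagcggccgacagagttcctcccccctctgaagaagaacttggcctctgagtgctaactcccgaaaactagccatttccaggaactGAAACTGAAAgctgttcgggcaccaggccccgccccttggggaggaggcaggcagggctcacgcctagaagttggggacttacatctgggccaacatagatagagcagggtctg

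Of 23 measured genes of double-stranded RNA sensing and interferon, 2 rose (8.7%, against 2.05% of genes with a RefSeq symbol) and 1 fell (4.35%, against 3.43%). Ifih1, which codes for the cytoplasmic RNA sensor MDA5, had levels of -2.16, -0.63 and -1.86 in D1709N cells, against -4.22, -2.48 and -4.10 in GFP cells, 4.14-fold higher in D1709N cells (limma adjusted p = 0.0446). Eif2ak2, the RNA-activated kinase PKR, was 1.99-fold higher (limma adjusted p = 0.0407), and Ikbke, a kinase upstream of interferon transcription, 1.53-fold lower (limma adjusted p = 0.0285). Ifnb1, which codes for interferon beta, was above background on all 3 D1709N arrays and on 1 GFP array (levels of -4.70, -4.43 and -4.13 against -8.27, -5.31 and -6.49), but its log2 change of 2.27 was not called (limma adjusted p = 0.0801). No gene of MHC class I presentation was called (26 measured, median log2 change 0.36). Of 26 NF-kB and inflammatory genes 4 fell in D1709N cells and none rose. That is 15.4%, against 2.49% of all genes and 3.43% of those with a RefSeq symbol. The 4 were Vcam1, an adhesion molecule (2.12-fold, limma adjusted p = 0.00963), Tnfaip3 (1.44-fold), Nfkbia (1.41-fold) and Ptgs2 (1.35-fold), of which Tnfaip3 and Nfkbia code for inhibitors of the pathway.

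Among signalling pathways, TGF-beta and BMP genes had the most calls, 6 lower and 2 higher of 36 measured. The falls make up 16.7%, against 2.49% of all genes and 3.43% of those with a RefSeq symbol. The ligand Tgfb2 had levels of 0.05, -0.66 and -0.38 in D1709N cells, against 1.105, 0.19 and 0.58 in GFP cells, and was 1.94-fold lower in D1709N cells (limma adjusted p = 0.00652). The latent TGF-beta binding proteins Ltbp2 and Ltbp1, the second named after its values were seen, also fell (log2 change -0.80 each), and so did Fst, the activin antagonist follistatin (2.61-fold, limma adjusted p = 0.00862), Acvr1b and the signal transducer Smad1 (1.31-fold, limma adjusted p = 0.0497). The rises were of Id1 and Id3, target genes of BMP signalling, with Id1 1.81-fold higher (limma adjusted p = 0.00715). In the Notch list, 2 of 21 (9.52%) fell, the receptor Notch3 and the target gene Hey1, and Lfng, a glycosyltransferase that modifies Notch, rose 1.64-fold. In collagen and matrix genes 4 of 44 fell (9.09%) and none rose, Tnc most. Of 7 smooth muscle markers, Cnn1 (1.95-fold, limma adjusted p = 0.0208) and Acta2 (1.80-fold, limma adjusted p = 0.0419) fell, which is 28.6% against 3.43% of genes with a RefSeq symbol. Their levels spread widely between replicate numbers: neither was called without D1709N replicate 1 or 2, or without GFP replicate 2 or 3. The summed signal of the 7 markers was 37.2, 27.6 and 131 on D1709N arrays 1 to 3, against 45.6, 55.5 and 156 on GFP arrays 1 to 3, in multiples of the 75th percentile. In bulk RNA, fewer cells of a type and less RNA per cell cannot be told apart.

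Other genes that rose had varied roles. Tpsg1, a tryptase of mast cells, was above background on all 3 D1709N arrays and on no GFP array. With the lowest signals well above background as the floor, it was at least 3.74-fold higher in D1709N cells (levels of -3.29, -5.14 and -4.22 against -6.42, -8.63 and -5.50, limma adjusted p = 0.0304). It passed the filter on dim probes through the D1709N arrays alone, so the selection itself requires a difference, and its fitted log2 change was 0.75 under normexp background correction, against 2.64. S100a4, a calcium-binding protein of motile mesenchymal cells, had levels of 1.67, 1.18 and 1.91 in D1709N cells, against 0.32, -0.11 and 1.06 in GFP cells, 2.24-fold higher in D1709N cells (limma adjusted p = 0.00763). It was the 1 member called higher of 9 measured fibroblast or mesenchymal markers, of which Pdgfra and Col1a2 fell and 7 had a log2 change below 0. Krt7, a keratin of simple epithelia, was 2.01-fold higher (limma adjusted p = 0.0347) and the 1 member called of 9 measured oviduct and Muellerian epithelium markers, of which Ovgp1 had a log2 change of -0.32 and Cdh1 one of -0.27. Of 32 genes of ATF4 and ER stress 3 rose (9.38%, against 2.05% of genes with a RefSeq symbol). They were Trib3 (1.81-fold), the folate enzyme Mthfd2 (1.58-fold, limma adjusted p = 0.0324) and Psph of serine synthesis (1.53-fold, limma adjusted p = 0.0423). No ribosomal protein (35 measured, median log2 change 0.21) and no gene of hypoxia and glycolysis (30 measured, median 0.23) was called.

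Of 56 measured genes of S phase and mitosis, 1 was called (1.79%, against 5.48% of genes with a RefSeq symbol). It was the cell cycle transcription factor E2f2, with levels of 2.31, 1.63 and 1.82 in D1709N cells against 1.38, 0.92 and 1.47 in GFP cells (1.59-fold higher in D1709N cells, limma adjusted p = 0.0291). The median log2 change of the list was -0.005, with medians of -0.058, 0.114 and -0.085 in the 3 pairs. Ccna2, which codes for cyclin A2, had a log2 change of -0.02 (limma adjusted p = 0.921), and Cdkn1a, a p53 target that halts the cycle, one of 0.07 (limma adjusted p = 0.721).

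The comparisons of WT and of G1809R with GFP use the same 3 GFP arrays as that of D1709N, so their values are given side by side only, while the differences between D1709N and WT or G1809R were tested directly. Between D1709N and G1809R no gene was called in limma (smallest adjusted p 0.608, 1061 genes at an unadjusted p under 0.05), whereas 3759 genes (15.5%) were called between D1709N and WT, 1723 higher and 2036 lower in D1709N cells, and 402 (1.66%) were called without the block. A p that misses the threshold does not show that the mutants act alike. The count against WT was 1576, 2273 and 1915 without D1709N replicate 2, 1 and 3, and 2375 and 2195 without WT replicate 1 and 2.

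Targets of let-7 and proliferation genes differed between D1709N and WT. Lin28a was 3.95, 3.64 and 3.14 in D1709N cells, and its change from GFP was -0.08 with D1709N, 0.05 with G1809R and -2.55 with WT (difference of D1709N from WT 2.47, limma adjusted p = 3.3e-05). For Nr6a1, a nuclear receptor and let-7 target, the changes were -0.37, -0.23 and -2.60, and D1709N lay above WT (limma adjusted p = 0.000199). Of 44 let-7 targets, 15 were higher and 5 lower in D1709N than in WT cells. Of 160 targets in all 5p lists 44 were higher and 13 lower in D1709N than in WT cells, and of the 230 in 3p lists 31 were higher and 24 lower. Called in either direction were 35.6% of the 5p and 23.9% of the 3p targets, against 19.1% of genes with a RefSeq symbol. Of those 14732 genes 1327 were higher and 1481 lower, and of all genes tested 7.12% were higher and 8.42% lower. Without D1709N replicate 2 the counts were 30 higher and 5 lower in the 5p lists and 17 higher and 11 lower in the 3p lists, and without WT replicate 2 they were 32 and 6, and 20 and 14. Of 56 genes of S phase and mitosis, 43 were higher and none lower in D1709N than in WT cells, Ccna2 by 1.14 on the log2 scale (limma adjusted p = 0.000204). That count was 18 without the block and 28 without D1709N replicate 2.

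Genes called lower than GFP with D1709N, with G1809R and with WT were Celf1 (log2 change from GFP -0.91 with D1709N, -0.94 with G1809R and -0.996 with WT), Phlpp2 (-1.18, -0.90 and -1.08) and Tet2 (-1.44, -1.08 and -1.20). Their difference between D1709N and WT did not pass the test (limma adjusted p of 0.166 to 0.483). Others were called lower than GFP with both mutants, were not called with WT and differed between D1709N and WT: Fut4 changed by -1.71 with D1709N, -1.23 with G1809R and -0.16 with WT (limma adjusted p of the difference of D1709N from WT 0.000204). Hrk changed by -1.71, -1.25 and 0.46, Fst by -1.38, -1.52 and -0.01, and Gjb2 by -1.79, -1.99 and 0.09, each lower in D1709N than in WT cells (limma adjusted p = 0.00056, 0.0027 and 0.0104). Tgfb2 changed by -0.95, -0.96 and 0.96 and Cnn1 by -0.96, -1.03 and 1.11, so both lay on opposite sides of GFP with D1709N and WT (limma adjusted p of the difference 0.000139 and 0.000407). E2f2 was the reverse, with 0.67, 0.68 and -1.52 (limma adjusted p of the difference 0.000139). Of the 7 smooth muscle markers 6 were lower in D1709N than in WT cells, 3 without D1709N replicate 2 and none without the block or with the slide as a block. For interferon-stimulated genes, the median log2 change from GFP was 1.31 with D1709N, 1.82 with G1809R and 2.62 with WT, and 23 of 60 genes were lower and none higher in D1709N than in WT cells, a count that was 0 without the block or with the slide as a block, 1 without D1709N replicate 1 or 2 and 40 without WT replicate 3. Tpsg1 was above background on the 3 D1709N arrays and on no G1809R, WT or GFP array. It passed the filter on dim probes through the D1709N arrays alone, so the selection itself requires a difference.

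**Figure D5:**
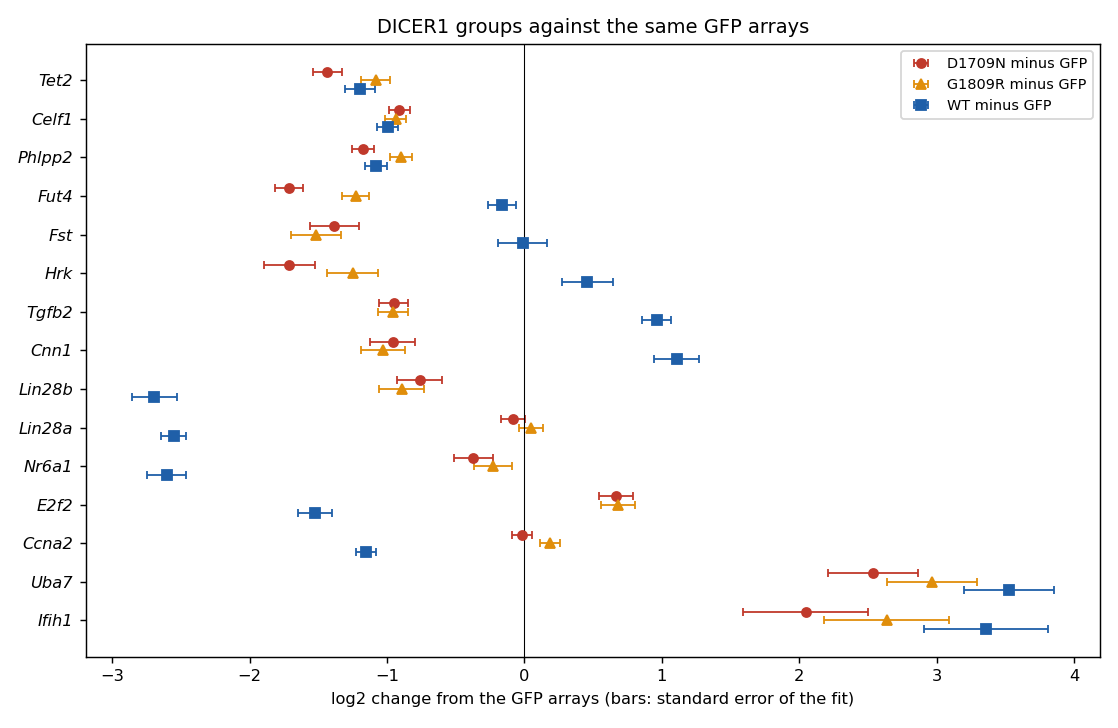
Log2 change from the shared GFP arrays (horizontal axis, bars are standard errors of the fit) of 15 genes with D1709N (red circles), G1809R (orange triangles) and WT (blue squares). Tet2, Celf1 and Phlpp2 lie left of 0 with all 3 groups, Fut4 lies at -1.71, -1.23 and -0.16, and Lin28a at -0.08, 0.05 and -2.55, each with D1709N, G1809R and WT in that order.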

How the data were processed

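RNA of DKO172 cells was measured on 12 single-colour arrays, 3 in each of 4 groups. The authors' scanner software, Agilent Feature Extraction 11.0.1.1 per the headers, gave the deposited intensities, per the file headers background-subtracted and detrended within an array. The deposited value table holds log2 signals (column medians 9.40 to 9.42) with a scaling between arrays that no source used here gives. It served as an alternative. The files' flags are 0 or 1.

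Here log2 intensity was taken relative to each array's 75th percentile (59305 non-control spots). Spots of a probe were averaged without outlier flags, and 287 of 55681 probes were left out for them. None was saturated. Probes well above background on every array of a group were kept, the brightest standing for its gene. Symbols came from RefSeq accessions (GRCm38.p6): 27130 of 55394 probes matched. At-least folds use the lowest signal well above background over all probes of an array as the floor, which may lie below a given probe's limit.

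All 12 arrays entered 1 fit in limma 3.58.1 (R 4.3.3), with group and replicate number as factors and Benjamini-Hochberg adjustment over all genes. All tests are two-sided. The numbers were taken to pair the arrays because deviations from group means correlated at 0.813, 0.658 and 0.65 for D1709N and GFP arrays of number 1, 2 and 3, and at 0.601 to 0.853 over all 18 same-number pairs of arrays. Number and slide are confounded for number 1. The fit was checked on simulated data. Named genes are the 12 that rose and the 12 that fell furthest among called genes with groups apart on all arrays, genes called without the block, up to 4 called members of each list and a set of let-7, DNA methylation and collagen genes. The list members and the genes named were chosen with earlier results of these data known. Alternatives covered background correction, scaling, probe filter, blocks, single arrays and WT arrays. The normexp alternative used the median spot signal and, like leaving out the WT arrays, was chosen after seeing the data. The number of arrays limits precision. miRNA levels and seed matches in target messages were not analysed here. Some members of the lists count in the totals but are not reported here by name.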

Additional observations from a re-analysis of the deposited data

How the results depend on the processing

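Between D1709N and GFP cells, where limma called 1027 genes, the count was 12 with no replicate block, 97 with the slide as a block, 65 in a fit of the 6 D1709N and GFP arrays with the replicate block and 0 in that fit without it. Slide 2 alone with the replicate block gave 82, no filter on dim probes 144, and eBayes with trend and robust settings 1874. Leaving out single arrays gave 127 to 1262. Normexp background (1139), quantile normalization (952), the deposited value table (1123) and leaving out the 3 WT arrays (1228) stayed within 1.5 times. Between D1709N and WT, where 3759 were called, the count was 402 with no replicate block, 1407 with the slide as a block, 939 on slide 2 alone, 1700 with no filter on dim probes and 1576 to 3376 without single arrays. Between D1709N and G1809R it was 0, except 1 without GFP replicate 3. The median log2 change of the interferon-stimulated genes was 1.108 under normexp and 1.125 to 1.488 without single arrays; that of the 3p lists ran from -0.152 to -0.066 and that of the 5p lists from -0.098 to -0.038 without single arrays. Of 101 named genes called, 10 stayed called with no replicate block, 20 with the slide as a block, 15 in the 6-array fit with the block, 28 with no filter on dim probes and 92 under normexp. None reversed under any setting run. Fits that change only the block, or leave out all WT arrays, keep the same difference of group means, so no sign could reverse there. With no block, the adjusted p of the other 91 lay between 0.118 and 1.0. Weak signals limit Cyp1b1, Tlcd4, Tpsg1 and Ifnb1, which were at background in a group. The causes of these shifts were not tested.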

Other observations

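Some members of gene families known from the early mouse embryo and from a rare state of embryonic stem cells rose in D1709N cells. The families were picked by name after the values were seen, so the counts are a description. Of all genes with a RefSeq symbol, 2.05% were called higher. Of 21 measured genes named Pramel, Zscan4, Tcstv, Tdpoz, Usp17l or Zfp352, 9 were called higher and none lower in D1709N cells (limma, replicate block). All 3 measured Zscan4 genes were among them: Zscan4f had levels of 0.20, -0.28 and -0.43 in D1709N cells, against -1.45, -1.91 and -1.62 in GFP cells, 2.81-fold higher without overlap (limma adjusted p = 0.0105), and Zscan4a and Zscan4c were 2.41-fold and 2.48-fold higher. Of 9 Pramel genes 5 rose. Pramel39, with levels of -0.68, -1.75 and -1.12 in D1709N cells against -2.71, -4.12 and -2.96 in GFP cells, was 4.23-fold higher (limma adjusted p = 0.00275), and Pramel37, Pramel19, Pramel31 and Pramel20 were 3.33-, 3.58-, 2.83- and 2.16-fold higher. Tcstv1 was 2.36-fold higher (limma adjusted p = 0.0355).

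No Tdpoz, Usp17l or Zfp352 gene was called. Log2 changes lay between 0.14 and 0.37 for 3 Tdpoz genes and between -0.005 and 0.025 for 3 Usp17l genes, and Zfp352 had 0.14. Values against the same GFP arrays with the other DICER1 groups are given side by side: the change of Zscan4f was 1.49 with D1709N, 0.91 with G1809R and 1.42 with WT, and that of Pramel39 was 2.08, 1.23 and 1.76. With G1809R, Zscan4f, Zscan4a and Pramel19 were not called (limma adjusted p of 0.0514, 0.0549 and 0.0782). The difference between D1709N and WT did not pass the test for either gene (limma adjusted p of 0.839 and 0.245). Members of such families can be alike in sequence, which was not analysed here, so a probe may read several of them and calls within a family may not be independent. None of the 9 was called without the block in limma.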
